A study of Mus musculus with 4 samples.

Results

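The peroxiredoxins and other peroxide-removing enzymes described here are 10 genes: the 6 peroxiredoxins Prdx1 to Prdx6, catalase (Cat), glutathione peroxidase 1 (Gpx1) and the superoxide dismutases Sod1 and Sod2. They were taken by gene symbol from a table of 47935 loci. Each symbol had 1 row, none of these rows was shared with another gene symbol, and all 10 passed the filter for testing. The table came from RNA-seq of MEL cells, mouse leukemia cells arrested as erythroid precursors, which begin to make hemoglobin after treatment with dimethyl sulfoxide (DMSO). There were 2 DMSO-induced samples, grown in complete DMEM with 1.5% DMSO, and 2 uninduced samples, grown in the same medium. The labels name no transgene or gene deletion in either group, and they do not say how long DMSO was present. All samples came from 1 transformed line. Whether the replicates were grown as separate cultures is not stated, so p-values reflect the spread of these 4 samples alone, and that spread may be technical.

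Oxygen carried on hemoglobin iron is a steady source of superoxide in red cells. Superoxide dismutases turn superoxide into hydrogen peroxide, and peroxiredoxins, catalase and glutathione peroxidases reduce the peroxide to water. Peroxiredoxins react through a cysteine that thioredoxin restores, glutathione peroxidase draws on glutathione, and both of these cycles are fed by NADPH, whereas catalase needs no reducing partner. Prdx2 is among the most abundant proteins of mature red cells, and mice that lack it have hemolytic anemia.

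The labelled cell type matched its markers. Erythroid markers summed to 59206 and 112740 FPKM in the DMSO-induced samples, against 1439 and 1719 FPKM in the uninduced samples. Of 9 markers 7 rose, beside 11.5% of all loci tested. Gata1 and Epor did not pass (limma adjusted p = 0.138 and 0.203). Most of the sums in DMSO-induced replicates 1 and 2 lay in Hba-a1 (40300.5 and 67689 FPKM) and Hbb-bs (15799.8 and 39766.6 FPKM). FPKM is fragments per kilobase of transcript, scaled to each library. Markers of T cells, B cells, macrophages, fibroblasts and hepatocytes summed to at most 2.12 FPKM per list in the DMSO-induced samples and 7.73 FPKM in the uninduced samples, with Cd8a, Ms4a1, Dcn, Alb and Serpina1a listed at 0 in all 4 samples. Sequencing depth was not given. Relative depth was estimated from short single-exon loci, as the median of low values, multiplied by locus length, within a fixed range. Under the assumption of scaling to library totals, it was 0.71, 0.77 and 0.94 for DMSO-induced replicates 1 and 2 and uninduced replicate 1. The reference was uninduced replicate 2, and the fixed range limits how far these estimates can differ.

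DMSO-induced cells had more Prdx2 and less Prdx6 and Sod2 than uninduced cells. Prdx2 averaged 1963 ± 399 FPKM in DMSO-induced and 644 ± 105 FPKM in uninduced samples (SD, n = 2 each), and it was the enzyme with the highest mean in both groups. Prdx6 and Sod2 fell to 0.451 and 0.521 of their uninduced mean levels. The other 7 enzymes did not pass the test. The count of 3 called members, 1 higher and 2 lower, stood beside a background of 26.2% of the 12890 loci tested that passed a limma adjusted p of 0.05, 11.5% higher and 14.7% lower in DMSO-induced cells. The share of members called was near that background, so the count is no result about these enzymes. Their median log2 fold change was -0.06, against 0.03 over all loci tested. With quantile normalization Cat passed and Sod2 did not, so the split became 2 higher (Prdx2 and Cat) and 1 lower (Prdx6). By limma, 0 members passed when any 1 of the 4 samples was left out (3 or 4 had an unadjusted p under 0.05 in each such fit) or when loci with low values were kept (4 had one). Fold changes are limma estimates on the log2(FPKM + 1) scale with their standard errors, DMSO-induced minus uninduced.

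**Figure D1:**
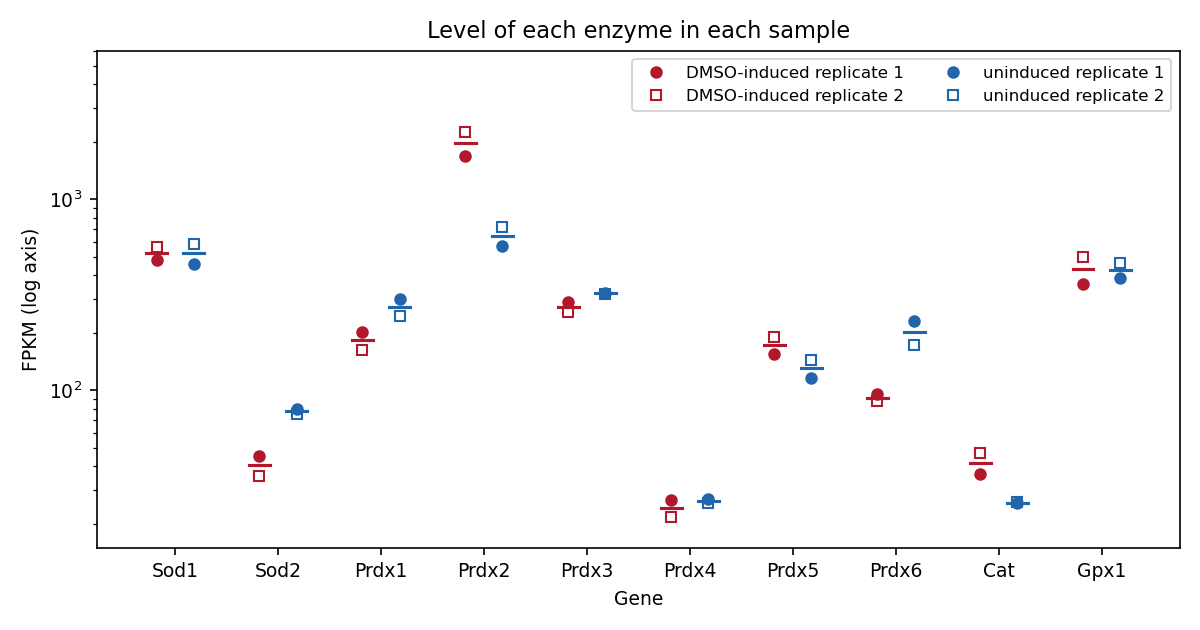
FPKM of the 10 enzymes (log axis) in each sample, with DMSO-induced samples in red to the left of uninduced samples in blue, filled circles for replicate 1, open squares for replicate 2 and a line at each group's mean. Both DMSO-induced Prdx2 values (1681 and 2245 FPKM) lie above every other point, while the groups of Sod1, Gpx1 and Prdx4 overlap.

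Promoter sequences were read from RefSeq on GRCm38.p6 for 9 of the 10 genes (all but Prdx6), in a window of 250 bases before the gene's start and 50 bases from it. The RefSeq start can differ from that of GENCODE M21. The windows of Sod2 (chromosome 17, 13007589 to 13007888) and Prdx4 (chromosome X, 155338411 to 155338710) lie wholly within the GENCODE spans of these genes. The letters were searched on both strands for 6 motifs. Stretches of 6 genes are shown: those of Prdx2 and Sod2, the called genes with a window, and 1 each of Prdx1, Prdx3, Sod1 and Cat as examples of the other motifs found. Capitals mark the matches: GC boxes (GGGCGG) in all of them except Prdx3 and Cat, the core of the antioxidant response element (TGACNNNGC, the site of NRF2) in Prdx1 and Sod1, CCAAT boxes in Sod1 and Cat, and a CACCC box (CCACACCC or CCGCACCC) in Prdx3. Each is written on the gene's own strand, 5′ to 3′.
Prdx1, plus strand, chr4:116685459-116685509: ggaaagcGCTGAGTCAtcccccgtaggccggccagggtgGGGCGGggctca
Prdx2, plus strand, chr8:84969606-84969635: accgcggcgctgtcCCGCCCacctccccgc
Prdx3, minus strand, chr19:60874609-60874638: tgcataaaCCACACCCctcctccacccact
Sod1, plus strand, chr16:90220612-90220714: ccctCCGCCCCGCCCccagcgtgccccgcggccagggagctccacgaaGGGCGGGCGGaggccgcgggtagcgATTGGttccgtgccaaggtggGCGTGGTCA
Sod2, plus strand, chr17:13007709-13007779: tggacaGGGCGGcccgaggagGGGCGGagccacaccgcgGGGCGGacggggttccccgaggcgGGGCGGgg
Cat, minus strand, chr2:103485199-103485248: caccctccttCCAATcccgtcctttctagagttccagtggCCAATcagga

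The match of the antioxidant response element core in Prdx1 began 133 bases before the start, and the one in Sod1 began 56 bases before it. Such a match was present in 2 of the 9 windows and in 12.4% of all 32851 RefSeq windows (14.4% of those of tested genes). GC boxes were present in all 9, in 35.7% of all windows and in 64.6% of the 9199 windows of genes tested here. Sod2, which fell, and Sod1, which did not pass, each had 4 of them, and those of Sod1 overlapped each other in pairs. Prdx2, which rose, had 1, across its RefSeq start, in a stretch that GENCODE M21 places in exons of Prdx2 and of Rnaseh2a. CCAAT boxes were present in 4 of 9 windows, against 37.4% of all and 38.5% of those of tested genes, and CACCC boxes in 3 of 9, against 5.31% and 6.61%. GATA motifs (AGATAA, also with a final G or an initial T), present in 29.8% of all windows and 18.4% of those of tested genes, and the forkhead motif GTAAACA, present in 3.65% and 2.36%, were in none of the 9. A match is a description of the letters in these windows only.

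**Figure D2:**
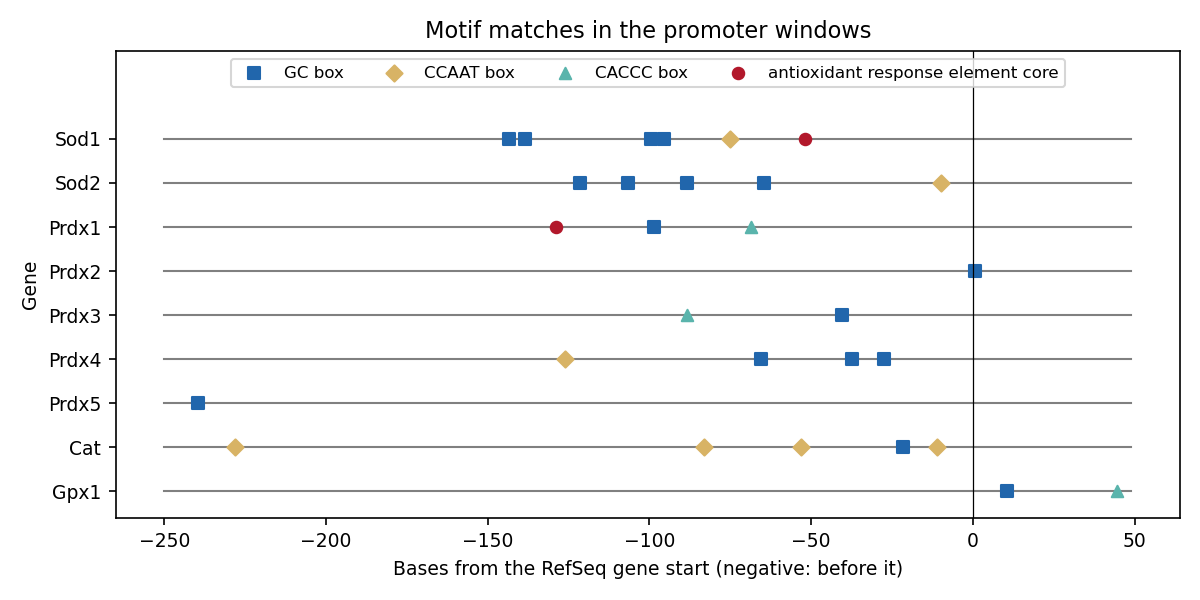
Motif matches in the windows of 9 enzymes, placed by their distance in bases from the RefSeq gene start (negative values lie before it). Squares are GC boxes, diamonds CCAAT boxes, triangles CACCC boxes and circles the antioxidant response element core, which Prdx1 and Sod1 carry.

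Superoxide dismutases make the peroxide that the other enzymes remove, and the 2 genes differed in their values. Sod1, the copper and zinc enzyme of the cytosol (chromosome 16, 90220754 to 90226329 on GRCm38, GENCODE M21), had 481 and 565 FPKM in DMSO-induced replicates 1 and 2, against 461 and 585 FPKM in uninduced replicates 1 and 2. The uninduced values lay on both sides of the induced ones. Its log2 fold change was 0.01 ± 0.25 with a 95% interval from -0.63 to 0.64, and its sign turned under median-of-ratios scaling. Changes within that interval remain compatible with these samples, so the values do not show that Sod1 was unchanged. Sod2, the manganese enzyme of the mitochondrial matrix (chromosome 17, 13006846 to 13040063), had 45.4 and 35.6 FPKM in DMSO-induced samples and 79.6 and 75.7 FPKM in uninduced samples. Both induced values were below both uninduced values. The fall of 0.93 ± 0.21 on the log2 scale had a limma adjusted p of 0.0334, and the adjusted p was 0.0588 under quantile normalization and 0.0632 when libraries were scaled without globins and the 10 most abundant loci. Within each sample the ratio of Sod1 to Sod2, which does not depend on library scaling, was 10.6 and 15.9 in DMSO-induced samples and 5.79 and 7.72 in uninduced samples. Ccs, the chaperone that loads copper into Sod1, did not pass (-0.02 ± 0.25 on the log2 scale, limma adjusted p = 0.96).

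Prdx1 and Prdx2 are the cytosolic peroxiredoxins of the typical 2-Cys class, in which a disulfide forms between the subunits of a dimer. They are close relatives, with coding sequences of 597 and 594 bases that aligned at 69.8% identity. Prdx2 (chromosome 8, 84969587 to 84974834) had 1681 and 2245 FPKM in DMSO-induced samples, against 569.6 and 719 FPKM in uninduced samples. The lowest induced value was above the highest uninduced one. Prdx2 rose by 1.60 ± 0.29 on the log2 scale (limma adjusted p = 0.0224), at the 97th percentile of the log2 fold changes of all loci tested, and the ratio of its mean levels was 3.05. Its mean level over the 4 samples ranked 134 among the 12890 loci. The DMSO-induced sample with more Prdx2 was replicate 2, which was also the one with the higher erythroid marker sum of 112740 FPKM; the part of that in the Prdx2 difference was not tested.

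Prdx1 (chromosome 4, 116685544 to 116700822) had 202 and 163 FPKM in DMSO-induced samples and 299.7 and 247 FPKM in uninduced samples. The groups did not overlap. That held for 7 of the 10 enzymes, 3 higher and 4 lower in DMSO-induced cells, and for 70.8% of all loci tested, 36.1% higher and 34.7% lower. Its log2 fold change of -0.58 ± 0.23 did not pass (limma adjusted p = 0.121, 95% interval -1.17 to 0.01). The log2 ratio of Prdx2 to Prdx1 within a sample was 3.05 and 3.78 in DMSO-induced samples, against 0.93 and 1.54 in uninduced samples. The means differed by 2.18, with SDs of 0.51 and 0.44 (n = 2 each), and the two-sided exact permutation p of 0.333 is the smallest that 2 against 2 samples allow. In FPKM, Prdx2 stood at 8.31 and 13.7 times Prdx1 in DMSO-induced samples and at 1.9 and 2.91 times in uninduced samples.

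Neighbouring genes and copies bear on how far these values belong to 1 gene. The annotated span of Prdx2 shares 181 bases with Rnaseh2a and 351 bases with Junb, both on the opposite strand, and the labels do not say whether fragments were counted by strand. The table's own row for Prdx2 spans 84956610 to 84974834, which takes in all of Rnaseh2a, although Rnaseh2a also has a row of its own. Rnaseh2a, a subunit of an enzyme that removes RNA from DNA, had 105 and 138 FPKM in DMSO-induced samples and 66.0 and 79.4 FPKM in uninduced samples (log2 fold change 0.72 ± 0.23, limma adjusted p = 0.0758). Junb, an AP-1 transcription factor, had 52.7 and 79.3 FPKM in DMSO-induced samples and 31.4 and 35.6 FPKM in uninduced samples (0.93 ± 0.26, limma adjusted p = 0.0549). Both had higher values in DMSO-induced samples, as Prdx2 had, with unadjusted 95% intervals of 0.13 to 1.32 for Rnaseh2a and 0.27 to 1.59 for Junb. Their part in the Prdx2 values was not tested. Prdx5 shares 409 bases with Trmt112, and the table's row for Prdx5 spans 6906697 to 6921813, which takes in all of Trmt112, a gene with a row of its own. The row runs on past the end of Trmt112 at 6911049, and genes in that further stretch were not looked for. Sod1 shares 650 bases with Scaf4. The other 7 enzymes overlap no other annotated gene. Copies whose transcripts matched at least 80% of a member's coding sequence at 90% identity or more were found for Prdx1 (3 copies), Prdx2, Prdx6 and Sod1 (1 each), and none was above 0.56 FPKM in any sample.

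Prdx3 and Prdx4 are typical 2-Cys enzymes of other compartments. Prdx3, the peroxiredoxin of the mitochondrial matrix (chromosome 19, 60864051 to 60874556), had 290.0 and 256 FPKM in DMSO-induced samples and 323 and 321 FPKM in uninduced samples. The induced values were both lower, but the log2 fold change of -0.24 ± 0.20 did not pass (limma adjusted p = 0.409). Prdx4, which sits in the endoplasmic reticulum and uses peroxide in the oxidative folding of secreted proteins (chromosome X, 155323918 to 155340754), had 26.7 and 21.7 FPKM in DMSO-induced samples and 26.9 and 25.7 FPKM in uninduced samples. Its groups overlapped, and its log2 fold change was -0.12 ± 0.20 (limma adjusted p = 0.671, 95% interval -0.64 to 0.39), or 0.00 under quantile normalization. It was the least abundant peroxiredoxin in both groups.

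Prdx5 and Prdx6 belong to other classes. Prdx5, an atypical 2-Cys enzyme that closes its disulfide within 1 subunit and is found in mitochondria, peroxisomes and the cytosol (chromosome 19, 6906697 to 6910106), had 155 and 191 FPKM in DMSO-induced samples and 116 and 145 FPKM in uninduced samples. The log2 fold change of 0.41 ± 0.23 did not pass (limma adjusted p = 0.232, 95% interval -0.18 to 0.99). Trmt112, which shares bases with it on the other strand, had 84.8 and 88.2 FPKM in DMSO-induced samples and 127 and 132.5 FPKM in uninduced samples, so the values of the neighbours lay in opposite directions. Prdx6, the 1-Cys enzyme, which is reduced by glutathione and also acts on phospholipids (chromosome 1, 161240112 to 161251219), had 95.3 and 87.6 FPKM in DMSO-induced samples and 232 and 173.5 FPKM in uninduced samples. All induced values were under all uninduced ones. Prdx6 fell by 1.13 ± 0.23 on the log2 scale (limma adjusted p = 0.0273), and it passed under every scaling tried.

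**Figure D3:**
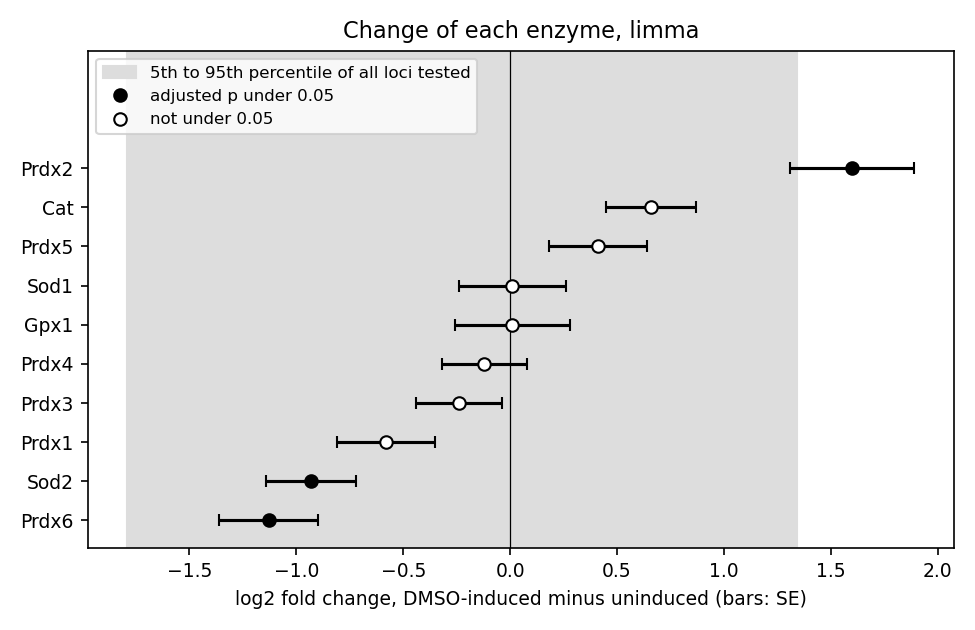
Log2 fold change of each enzyme, DMSO-induced minus uninduced, with its standard error; filled points passed a limma adjusted p of 0.05 and the grey band spans the 5th to 95th percentile of all 12890 loci tested (-1.79 to 1.34). Prdx2 at 1.60 is the only enzyme whose estimate lies outside the band, and Prdx6 at -1.13 and Sod2 at -0.93 are the filled points on the lower side.

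Catalase and Gpx1 do not belong to the peroxiredoxin family. Cat, a heme enzyme of peroxisomes that is also abundant in red cells (chromosome 2, 103453849 to 103485160), had 36.7 and 46.9 FPKM in DMSO-induced samples and 25.8 and 26.0 FPKM in uninduced samples. The higher induced values gave a log2 fold change of 0.66 ± 0.21 that did not pass (limma adjusted p = 0.0713, 95% interval 0.13 to 1.19 before adjustment). It passed under quantile normalization (limma adjusted p = 0.0406), with adjusted p from 0.0406 to 0.123 over the 8 alternatives that kept all samples. Gpx1, a selenoprotein that spends glutathione (chromosome 9, 108338903 to 108340343), had 361 and 501 FPKM in DMSO-induced samples and 386 and 464 FPKM in uninduced samples. The induced values lay outside the uninduced ones on both sides. Its log2 fold change was 0.01 ± 0.27 with a 95% interval from -0.68 to 0.69, and the sign turned under median-of-ratios scaling.

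Summed over the 6 peroxiredoxins, the table held 2450.0 and 2965 FPKM in DMSO-induced samples and 1568 and 1630.0 FPKM in uninduced samples. Without Prdx2 the sum of the other 5 was 769 and 720.0 FPKM in DMSO-induced samples, against 998 and 911 FPKM in uninduced samples, so that the higher total lay in Prdx2. Prdx2 made up 68.6% and 75.7% of the peroxiredoxin sum in DMSO-induced samples and 36.3% and 44.1% in uninduced samples. Prdx6 made up 3.89% and 2.95% in DMSO-induced samples and 14.8% and 10.6% in uninduced samples. All 10 enzymes together took 0.271% and 0.374% of the table's FPKM in DMSO-induced samples and 0.239% and 0.21% in uninduced samples. These sums describe the samples and were not tested, since they follow from the choice of members.

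**Figure D4:**
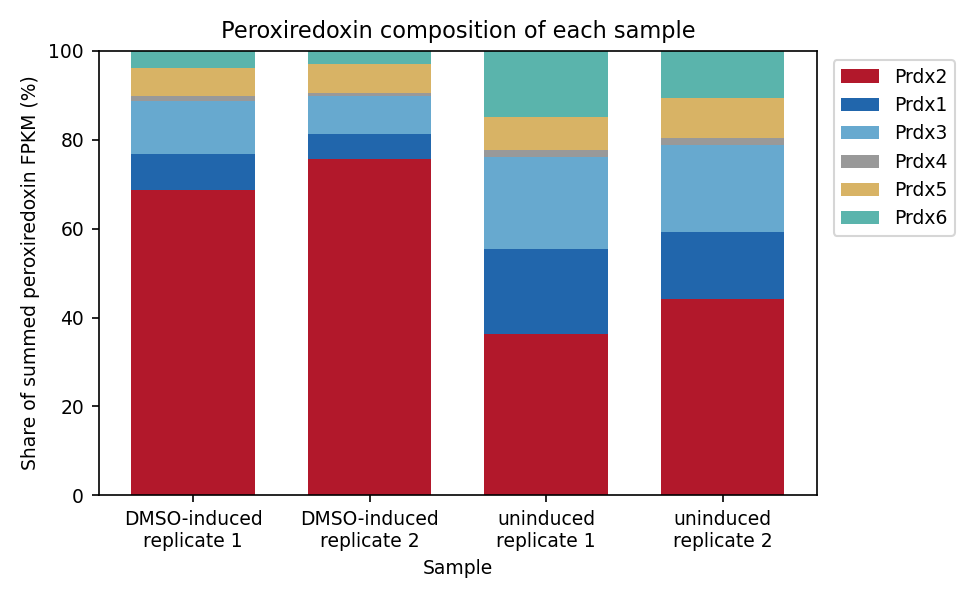
Share of each peroxiredoxin in the summed FPKM of the 6 peroxiredoxins (percent, stacked bars), with the 2 DMSO-induced samples left of the 2 uninduced ones. The Prdx2 segment reaches 68.6% and 75.7% in DMSO-induced samples and 36.3% and 44.1% in uninduced samples.

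By mean FPKM the order in DMSO-induced cells was Prdx2, Sod1, Gpx1, Prdx3, Prdx1, Prdx5, Prdx6, Cat, Sod2 and Prdx4. In uninduced cells it was Prdx2, Sod1, Gpx1, Prdx3, Prdx1, Prdx6, Prdx5, Sod2, Prdx4 and Cat. In both groups the values of Sod1 and Gpx1 overlapped across samples, although within every sample Sod1 was above Gpx1. In DMSO-induced cells those of Prdx1 and Prdx5 and those of Cat and Sod2 also overlapped, and in uninduced cells those of Prdx2 and Sod1 and those of Prdx4 and Cat. The overlap of Prdx2 and Sod1 in uninduced cells lay between samples, as replicate 1 had 569.6 FPKM of Prdx2 and replicate 2 had 585 FPKM of Sod1. Within each uninduced sample Prdx2 was above Sod1, at 569.6 against 461 FPKM in replicate 1 and 719 against 585 FPKM in replicate 2.

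The 3 loci whose values over the 4 samples were most like those of Prdx2 were Cystm1, Car5b and Rab13, among 7151 loci with 1 symbol and a mean of at least 5 FPKM. Likeness was the root mean square difference in log2(FPKM + 1) after each gene was centred on its own mean, and it was 0.025 for Cystm1, 0.034 for Car5b and 0.041 for Rab13. Cystm1 had 27.2 and 36.5 FPKM in DMSO-induced samples and 8.73 and 10.7 FPKM in uninduced samples. Car5b had 7.21 and 9.29 FPKM in DMSO-induced samples and 1.65 and 2.39 FPKM in uninduced samples. All 3 were higher in both DMSO-induced samples and highest in replicate 2, as Prdx2 was. That follows from their selection by likeness to Prdx2 in these same 4 samples, so it is no separate observation.

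Partner genes were taken from 8 lists of 82 genes in all, of which 65 were tested. Of these, 7 rose and 12 fell, with a median log2 fold change of -0.16, beside the background of 26.2% called (11.5% higher and 14.7% lower). By limma, 4 of the 65 passed without DMSO-induced replicate 1 and 0 without any other 1 sample, with 19 to 28 at an unadjusted p under 0.05 in these fits, and 0 passed when loci with low values were kept (31 at an unadjusted p under 0.05). The thioredoxin list holds thioredoxins and their reductases, which recharge peroxiredoxins, along with the inhibitor Txnip, the sestrins and other relatives. In it, 2 of 12 rose, 2 fell and 8 did not pass (median 0.06), and 3 of the 4 called genes were sestrins. Txn2, the mitochondrial thioredoxin that serves Prdx3, had 52.4 and 60.4 FPKM in DMSO-induced samples and 119 and 135 FPKM in uninduced samples. Both induced values were below the uninduced ones, as for 34.7% of all loci tested. The fall of Txn2 was 1.16 ± 0.20 on the log2 scale (limma adjusted p = 0.02). Sesn3 and Sesn1, stress proteins of the sestrin family, which restrain the growth kinase complex mTORC1, rose by 2.32 ± 0.20 and 1.32 ± 0.19, while the sestrin Sesn2 fell by 1.71 ± 0.44 (limma adjusted p = 0.00906, 0.0163 and 0.0463). Sesn2 had 7.64 and 8.04 FPKM in DMSO-induced samples, against 17.5 and 43.8 FPKM in uninduced samples, which stood far apart; it did not pass with a pseudocount of 0.1 (limma adjusted p = 0.051). Txnip, an inhibitor of thioredoxin and the most abundant gene of the list, had 381 and 723 FPKM in DMSO-induced samples and 133 and 290.2 FPKM in uninduced samples, and did not pass (1.41 ± 0.50, limma adjusted p = 0.0924). It passed with a replicate block (limma adjusted p = 0.0172).

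The list of glutathione synthesis and recycling had calls in both directions. It held 11 tested genes, with 2 higher, 3 lower and 6 past no threshold (median 0.04). The background over all loci tested was 11.5% higher and 14.7% lower (median 0.03). Gclm stood in a row shared with another symbol. Glrx, a cytosolic glutaredoxin, which uses glutathione to reduce protein disulfides, had 34.5 and 40.6 FPKM in DMSO-induced samples and 16.1 and 13.7 FPKM in uninduced samples (rise of 1.28 ± 0.20, limma adjusted p = 0.0186). Both induced values were above both uninduced ones, which held for 36.1% of all loci tested. The other called genes act in cystine import and in breakdown. Slc7a11, the cystine importer, fell by 1.70 ± 0.35 (limma adjusted p = 0.0278), from low values. It had 1.2 and 0.39 FPKM in DMSO-induced samples and 3.58 and 6.07 FPKM in uninduced samples. Ggct and Chac1, which break down gamma-glutamyl compounds and glutathione, fell by 2.13 ± 0.27 and 2.32 ± 0.46, and Chac2, a related glutathione-degrading enzyme, rose by 1.18 ± 0.31 (limma adjusted p = 0.0134, 0.0264 and 0.0479). Ggct had 1.82 and 0.94 FPKM in DMSO-induced samples and 8.72 and 9.72 FPKM in uninduced samples. Chac1 had 2.33 and 2.23 FPKM in DMSO-induced samples, against 9.34 and 24.9 FPKM in uninduced samples, which stood far apart. With a pseudocount of 0.1 the log2 fold changes of Slc7a11, Ggct and Chac1 were -2.58, -2.72 and -2.69, so their sizes depend on that setting. Chac2 did not pass with a pseudocount of 0.1 or when libraries were scaled without globins and the 10 most abundant loci. Glrx5, a mitochondrial glutaredoxin of iron-sulfur cluster assembly and the most abundant gene of the list, had 342 and 440.4 FPKM in DMSO-induced samples and 220.4 and 231 FPKM in uninduced samples (0.78 ± 0.23, limma adjusted p = 0.0609).

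NADPH supply had 4 of 11 genes lower, none higher and 7 not past the threshold, with a median of -0.81, the lowest of the 8 lists, against 14.7% lower, 11.5% higher and a median of 0.03 over all loci tested. Pgd, an NADPH-producing enzyme of the pentose phosphate pathway, had 53.1 and 42.4 FPKM in DMSO-induced samples and 154 and 96.7 FPKM in uninduced samples (log2 fold change -1.34 ± 0.29, limma adjusted p = 0.0317, or 0.0523 when scaled without globins and the 10 most abundant loci). Idh2, the mitochondrial NADP-dependent isocitrate dehydrogenase, had 67.9 and 59.5 FPKM in DMSO-induced samples and 134 and 185 FPKM in uninduced samples (log2 fold change -1.30 ± 0.24, limma adjusted p = 0.0226). The groups of neither gene overlapped, which held for 70.8% of all loci tested. The folate enzymes Mthfd1 and Mthfd2, which form NADPH or NADH as they oxidize one-carbon units, fell by 2.38 ± 0.31 and 2.16 ± 0.31 (limma adjusted p = 0.014 and 0.0161). G6pdx, the entry enzyme of the pentose phosphate pathway, had 45.6 and 47.6 FPKM in DMSO-induced samples and 50.9 and 37.6 FPKM in uninduced samples and did not pass (limma adjusted p = 0.783); it was named after its values were seen.

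Selenocysteine genes serve Gpx1, whose active site holds that amino acid. Of 7 tested, 1 fell and 6 did not pass (median -0.36), beside 14.7% lower and 11.5% higher over all loci tested (median 0.03). Sephs2, which makes the selenium donor for selenocysteine and was the most abundant of the list, had 73.6 and 67.2 FPKM in DMSO-induced samples and 171 and 187 FPKM in uninduced samples. It fell by 1.34 ± 0.19 (limma adjusted p = 0.0155), beside a Gpx1 log2 fold change of 0.01. Of the 9 other glutathione peroxidases and superoxide dismutase partners, only Gpx4 and Ccs reached the filter, and by limma 0 passed (0 also at an unadjusted p under 0.05). Gpx4, the peroxidase of membrane lipids, had 520.4 and 896 FPKM in DMSO-induced samples and 367 and 426 FPKM in uninduced samples (0.79 ± 0.33, limma adjusted p = 0.134). Gpx6, Gpx8 and Sod3 were listed at 0 in all 4 samples.

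For the next 2 lists the background over all loci tested was again 26.2% called (11.5% higher and 14.7% lower), with a median of 0.03. Peroxisome import genes, which carry catalase to its organelle, had 0 calls among 10 in limma, with a median of -0.21. At an unadjusted p under 0.05 there were 3 (Pex2, Pex5 and Pex14, Pex2 and Pex14 being named after their values were seen). Pex5, the import receptor, had 28.1 and 33.2 FPKM in DMSO-induced samples and 43.4 and 47.2 FPKM in uninduced samples (-0.55 ± 0.19, limma adjusted p = 0.0928). Among 5 tested subunits of NADPH oxidases, which make superoxide in phagocytes, 1 rose, 1 fell and 3 did not pass (median -0.65). Ncf4 had 46.7 and 72.1 FPKM in DMSO-induced samples and 11.0 and 19.1 FPKM in uninduced samples (rise of 1.93 ± 0.35, limma adjusted p = 0.0223). Ncf1 had 0.13 and 0.38 FPKM in DMSO-induced samples and 2.24 and 4.65 FPKM in uninduced samples (log2 fold change -1.78 ± 0.33, limma adjusted p = 0.023). It reached the filter of 1 FPKM only in the uninduced samples, so it was tested only because of the group where it is high. With a pseudocount of 0.1 its log2 fold change was -3.33, so its size depends on that setting. Cybb, the catalytic subunit in phagocytes, was listed at 0 in all 4 samples. Rac2, the most abundant gene of the list, had 40.1 and 56.6 FPKM in DMSO-induced samples and 81.3 and 70.2 FPKM in uninduced samples and did not pass. Macrophage markers summed to 2.12 and 1.21 FPKM in DMSO-induced samples and 7.73 and 5.19 FPKM in uninduced samples, with 1 of 5, Cd68, tested and lower; their part in these values was not tested.

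Among 7 tested regulators of the peroxide and redox response, 2 rose, 1 fell and 4 did not pass (median 0.61). Over all loci tested, 11.5% were higher and 14.7% lower, with a median of 0.03. Foxo3, a forkhead factor that activates antioxidant genes in erythroid cells, had 93.5 and 129 FPKM in DMSO-induced samples and 23.1 and 19.8 FPKM in uninduced samples (rise of 2.30 ± 0.24, limma adjusted p = 0.0115). Nqo1, a quinone reductase and NRF2 target, rose by 0.97 ± 0.20 (limma adjusted p = 0.0291), and Hmox1, heme oxygenase, also an NRF2 target, fell by 2.02 ± 0.36 (limma adjusted p = 0.0215). Nqo1 and Hmox1 were the called genes of this list named as targets, and genes of the other lists were not sorted by NRF2. The part of NRF2 in these values was not tested. Keap1, which marks NRF2 for degradation, was the most abundant of the list, with 87.7 and 97.0 FPKM in DMSO-induced samples and 95.04 and 91.3 FPKM in uninduced samples. Its log2 fold change was -0.01 ± 0.18 (limma adjusted p = 0.96), with a sign that turned under 2 of the 3 other scalings.

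**Figure D5:**
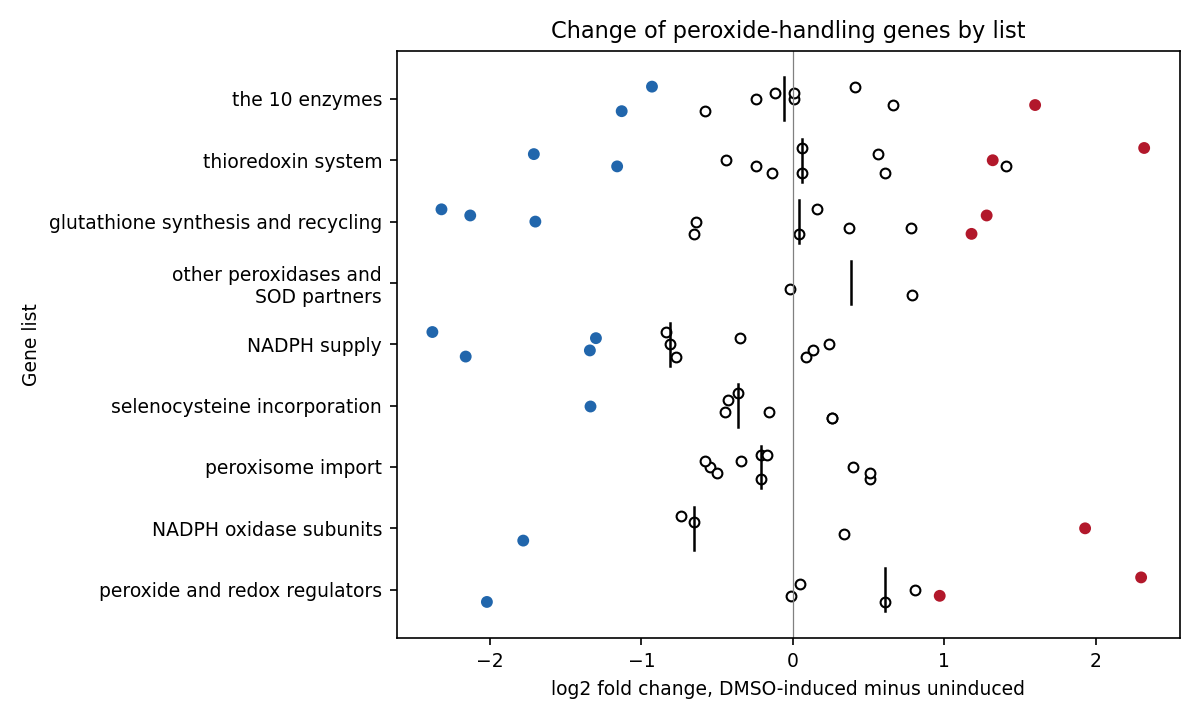
Log2 fold change, DMSO-induced minus uninduced, of every tested gene of the 10 enzymes and of the 8 lists; filled red points rose and filled blue points fell at a limma adjusted p of 0.05, open points did not pass, and short lines are medians. NADPH supply has the lowest median of the lists at -0.81, with 4 blue points and no red one among 11, beside 14.7% lower and 11.5% higher over all loci tested.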

How the data were processed

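RNA-seq of 2 DMSO-induced and 2 uninduced MEL samples was used. Trizol extraction and ribosomal RNA depletion are recorded per the labels' protocols. TopHat2 and the GRCm38 build are named per the submitters' processing notes; no source used here gives the quantifier, annotation, strandedness or depth. The authors deposited 1 FPKM column per sample; the unit was inferred from the file headers and values. FPKM values were not converted back to reads, and no count test was run. Positions came from GENCODE M21.

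The 12890 loci that reached 1 FPKM in 2 or more samples were fitted as log2(FPKM + 1) with limma 3.58.1 in R 4.3.3 (eBayes with trend, group as the only term), with Benjamini-Hochberg adjustment over all of them at 0.05. Copies were sought with blastn 2.17.0. Alternatives were 3 scalings, 3 filters, a pseudocount of 0.1, a replicate block and leaving out each sample. The members, lists, motifs and tests were chosen with earlier results of these data known. Named genes were the members, each list's most abundant gene and its largest called rise and fall, and, since no list had over 5 calls, all its called genes (the rule's wording, every member of such a list, was read as every called member); Scaf4, Ccs, G6pdx, Pex2, Pex14 and genes at 0 were added after values were seen. Gene lists are described by counts and medians, with no set test.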

Additional observations from a re-analysis of the deposited data

How the results depend on the processing

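The count of enzymes past the threshold was 3 in the fit reported. It was 0 with no filter and ranged from 0 to 0 when each sample was left out in turn; with the other scalings, filters and pseudocount it was 2 or 3. The count of pathway genes was 19, was 0 with no filter, ranged from 0 to 4 when a sample was left out, and was 17 to 22 under the other settings that kept all samples without a block. Fewer samples leave 1 residual degree of freedom, and a lone sample is assumed to vary like the other group; keeping all loci adds 13433 low loci. The Prdx2 to Prdx1 log2 ratio differed by 1.82 to 2.55 with a sample left out. With a replicate block the counts were 3 and 23; the difference in log2 ratio was 2.18 (exact p = 0.5, the smallest for 2 pairs). In the labels same-numbered samples share only a number, and their deviations correlated at 0.17 across loci. Replicate 2 minus replicate 1 had the same sign in both groups for all 10 enzymes. Some of these log2 differences were small (-0.01 for Prdx3 and 0.01 for Cat in uninduced samples), and the share over all loci was not counted. Signs turned for Prdx4 (0.00 under quantile normalization, -0.27 to 0.02 with a sample left out), Gpx1 (-0.07 under median-of-ratios scaling, -0.23 to 0.24 with a sample left out), Sod1 (-0.07 under median-of-ratios scaling, -0.17 to 0.18 with a sample left out) and Keap1 (0.25 under quantile normalization, 0.05 scaled without globins and the 10 most abundant loci, -0.09 to 0.06 with a sample left out). The cause was not tested.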
